A study of Mus musculus with 15 samples.

Results

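The 10 genes described here are antioxidant enzymes and metallothioneins: the superoxide dismutases Sod1, Sod2 and Sod3, the metallothioneins Mt1 and Mt2, the stress enzymes Hmox1 and Nqo1, the glutathione-synthesis genes Gclc and Gclm, and the thioredoxin reductase Txnrd1. They were taken by name from the 18078 genes listed, with no threshold on measured values, and all 10 were present and passed the filter on low values. The cells were primary lung fibroblasts of wild-type (WT) BALB/cJ mice, so every group shares 1 genotype and no gene was deleted. RNA was collected at 20 h from 5 groups of 3 libraries. The groups were untreated cells, cells given IL-33, cells given IL-33 with IL-17A, cells given IL-33 with IL-13, and cells given IL-33, IL-13 and IL-17A together. IL-33 belongs to the IL-1 family and is released by damaged barrier cells; its receptor activates NF-kB. IL-13 acts through the STAT6 pathway and marks allergic inflammation, and IL-17A marks neutrophilic inflammation. No group received IL-13 or IL-17A without IL-33, so what either does alone was not measured.

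Superoxide dismutases convert superoxide to hydrogen peroxide in different places: Sod1 in the cytosol, Sod2 in the mitochondrial matrix and Sod3 outside the cell. Metallothioneins are small cysteine-rich proteins that bind zinc and copper, and their genes are classic targets of the metal-sensing factor MTF1. Hmox1, Nqo1, Gclc, Gclm and Txnrd1 are textbook targets of NRF2 (gene Nfe2l2), a transcription factor that its partner KEAP1 holds at a low level in unstressed cells.

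Values are TPM, a length-scaled share of each library. Changes are log2 differences of TPM + 1 with their SE, from 1 limma fit over all 15 libraries, and a gene is called when the p adjusted over all tested genes is under 0.05. Calls were also checked with median-ratio scaling, which sets each library by the median gene in place of the TPM total, and with fits of the compared groups alone. Estimated depth was 10.5 to 15.1 M reads per library, and the smallest estimated count behind any value of the 10 genes was 147 reads (Nqo1). Of the 10 fibroblast markers listed, 9 averaged 10 TPM or more, led by Col1a1 at 4658 TPM. Macrophage markers were also abundant: 12 of the 13 measured averaged 10 TPM or more, and Lyz2 averaged 9363 TPM, so the cultures were not pure by these markers. Epithelial and endothelial markers were near 0, with no listed marker averaging 10 TPM, and none of the 5 lymphocyte markers was listed. Marker sums moved with treatment. From untreated cells to cells given all 3 cytokines, the fibroblast sum went from 14606 to 16062 TPM down to 9791 to 10296 TPM, and the smooth muscle and pericyte sum from 135.9 to 145.5 down to 34.8 to 38.7 TPM. Of the latter, Des was lower by -2.10 and Myh11 by -2.18 log2 (limma, adjusted p = 2.8e-10 and 8.5e-12). The fibroblast markers did not move as 1: 8 of 10 were called lower and 2 higher, against 30.1% and 12.6% of all genes. Dcn was higher by 1.31 and Lum by 0.65 log2 (limma, adjusted p = 7.7e-08 and 0.0028). The granulocyte and mast cell sum, of S100a8 and Mcpt8, went from 100.4 to 107 up to 245.2 to 303.6 TPM, with S100a8 higher by 2.91 and Mcpt8 by 0.77 log2 (limma, adjusted p = 2.8e-09 and 3.0e-06). Their part in the values of the 10 genes was not tested. In such bulk samples, fewer cells of a type and less RNA per cell cannot be told apart. A set of 6 libraries stood apart by a lower share of mitochondrially encoded transcripts, 3.50 to 3.87% against 4.77 to 6.13% in the other 9. It held all 3 libraries of IL-33 with IL-13, replicates 2 and 3 of IL-33 with IL-17A, and replicate 1 of the IL-33, IL-13 and IL-17A combination. The labels name no batch, and the set was seen in the data. Results that move with it are given with a term for it in the fit and from the libraries outside it. That term is estimated within the 2 groups given IL-17A, the only groups with libraries on both sides. It is carried over to IL-33 with IL-13, so a call of that group can be lost without a smaller change. Only 1 library of IL-33 with IL-17A lies outside, so values of that group outside the set rest on 1 sample that is assumed to vary like the other groups.

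Promoter sequences are shown for the 3 genes with the largest changes, because each is a textbook target of a metal-sensing or NF-kB factor. Of the 10 genes, 7 had a RefSeq promoter entry (build GRCm38.p6), and Sod3, Hmox1 and Gclc were not matched. The window is the 250 bases before the annotated start, written 5′ to 3′ on the gene's strand, which is plus for all 3 genes shown. For the metallothioneins, capitals mark matches to TGCNCNC, the core of the metal response element, on either strand. For Sod2, capitals mark a match to the NF-kB motif. The windows lie at chr8:94172368-94172617 for Mt2, chr8:94178839-94179088 for Mt1 and chr17:13007589-13007838 for Sod2. Distances are counted from the RefSeq start. In the files' annotation Sod2 also has an earlier start, at position 13006846, so this window lies inside its listed span. The files start Mt2 at position 94172664, downstream of the end of its window, and the bases after its RefSeq start were not found in a GENCODE transcript of the gene.
Mt2: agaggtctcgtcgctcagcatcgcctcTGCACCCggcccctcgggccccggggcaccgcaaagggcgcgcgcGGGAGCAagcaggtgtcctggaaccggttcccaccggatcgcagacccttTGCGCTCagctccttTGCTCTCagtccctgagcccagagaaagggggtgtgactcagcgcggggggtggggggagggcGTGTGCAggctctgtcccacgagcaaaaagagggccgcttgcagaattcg
Mt1: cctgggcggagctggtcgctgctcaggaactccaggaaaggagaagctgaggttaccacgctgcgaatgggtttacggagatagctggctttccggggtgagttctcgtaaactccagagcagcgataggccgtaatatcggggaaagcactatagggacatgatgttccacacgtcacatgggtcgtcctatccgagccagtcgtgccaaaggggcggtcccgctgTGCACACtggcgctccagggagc
Sod2: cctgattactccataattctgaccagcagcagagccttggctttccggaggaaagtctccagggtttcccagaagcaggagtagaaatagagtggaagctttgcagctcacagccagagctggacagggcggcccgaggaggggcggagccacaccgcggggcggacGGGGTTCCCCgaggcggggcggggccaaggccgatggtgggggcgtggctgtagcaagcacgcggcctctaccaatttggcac

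In these windows Mt2 held 5 matches to TGCNCNC, at 223, 178, 128, 113 and 50 bases before the RefSeq start, and Mt1 held 1, at 23 bases. Bases after the start were not searched. The merged annotated exons of Mt1 fill its whole span of 1246 bases. A promoter of any start within that span would lie partly outside the window. The counts therefore do not compare the whole promoters of Mt1 and Mt2. Of 32851 mouse promoter windows of the same length, 44.4% held at least 1 such match and 4.65% held 3 or more, so a single match is common. Mt2 also held the only antioxidant response element core, TGACNNNGC, of the metallothioneins, 79 bases before the start. That core was present in 10.2% of all windows, and Sod1, Gclm and 1 of the 3 Txnrd1 windows each held 1. Gclm's match overlapped 1 of its 2 TGCNCNC matches. Nqo1 held 2 TGCNCNC matches and no TGACNNNGC match. Sod2 was the only gene of the 7 with the NF-kB motif, which 7.25% of all windows held; its match lay 83 to 74 bases before the start. These are matches of letters in 1 window, not measured binding sites.

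**Figure D1:**
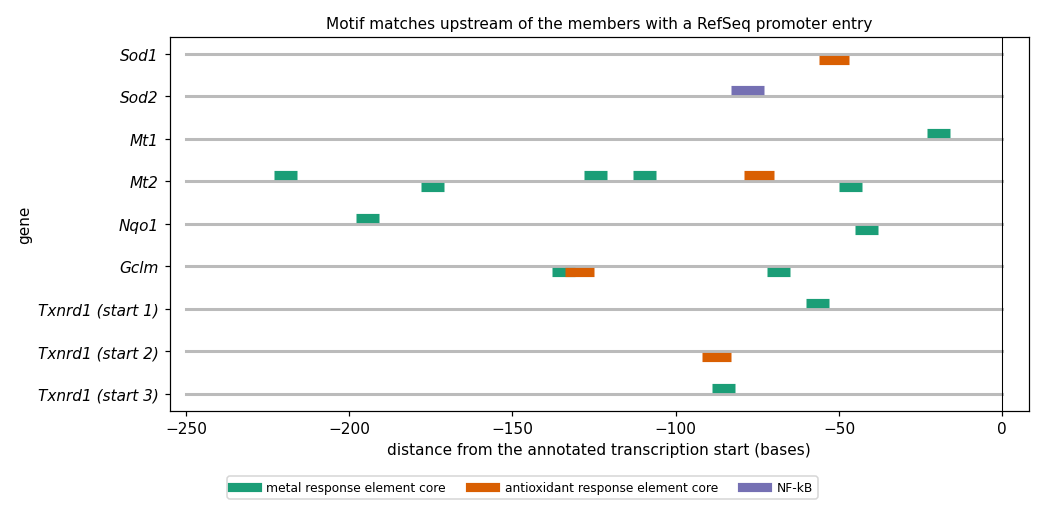
Motif matches in the 250 bases before the annotated start of the 7 genes with a promoter entry, with 3 starts for Txnrd1. The x axis is the distance from the start in bases, blocks above a line are matches on the gene's strand and blocks below it on the other strand; Mt2 carries 5 metal response element cores, and Sod2 carries the NF-kB match.

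Sod2 (chr17:13006846-13040063, plus strand, mm10), the mitochondrial superoxide dismutase, had the largest change of the 10 genes in each of the 4 comparisons with untreated cells. Untreated libraries had 24.4, 23.2 and 25.3 TPM. With IL-33 the values were 83.4, 79.8 and 88.3 TPM, and with IL-33 and IL-13 they were 107, 106 and 108 TPM. IL-33 with IL-17A gave 119, 117 and 122 TPM, and all 3 cytokines gave 133, 129 and 136 TPM. No library of any group overlapped a library of another group, and the order from low to high was untreated, IL-33, IL-33 with IL-13, IL-33 with IL-17A, and the combination of all 3. Against untreated cells, IL-33 raised Sod2 by 1.75 ± 0.04 on the log2 scale (SE; limma, adjusted p = 1.9e-11), which is 3.35-fold on TPM + 1. The rise was 2.26 with IL-17A added, 2.10 with IL-13 added and 2.40 with both, or 5.29-fold.

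Each added cytokine raised Sod2 further. Adding IL-17A to IL-33 raised it by 0.51 ± 0.04 log2 (limma, adjusted p = 7.6e-06), and adding IL-13 raised it by 0.35 ± 0.04 (limma, adjusted p = 8.9e-05). IL-17A added to IL-33 with IL-13 raised it by 0.30 ± 0.04 (limma, adjusted p = 8.7e-04). The step from IL-33 with IL-17A to all 3 cytokines was the smallest, 0.15 ± 0.04 (limma, adjusted p = 0.033). That call was lost when the fit held only the compared groups (0.15, limma adjusted p = 0.12), when only the libraries outside the set entered (0.15, limma adjusted p = 0.32), and on leaving out any 1 library of these 2 groups except replicate 2 of the 3-cytokine group. Sod2 did not move with the library set: the fitted inside minus outside difference was 0.00 ± 0.04 log2.

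Sod1 (chr16:90220754-90226329, plus strand), the cytosolic copper and zinc enzyme, changed far less. Untreated libraries had 154, 169 and 148 TPM (mean 157 ± 10.8, SD, n = 3) and IL-33 libraries 169, 164 and 148 TPM (160 ± 10.98, SD, n = 3), so these groups overlapped. The values were 181, 208 and 206 TPM with IL-33 and IL-17A, 206, 204 and 196 TPM with IL-33 and IL-13, and 216, 186 and 171 TPM with all 3. All libraries of the last 3 groups lay above every untreated library. Sod1 rose by 0.33 ± 0.09, 0.36 ± 0.09 and 0.27 ± 0.09 log2 in these groups (limma, adjusted p = 0.0097, 0.004 and 0.022), and with IL-33 alone the difference was 0.03 ± 0.09 (limma, adjusted p = 0.88).

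The Sod1 values also followed the library set. Within IL-33 with IL-17A the 2 libraries inside the set had 206 and 208 TPM and the 1 outside had 181 TPM. Within the 3-cytokine group the library inside had 216 TPM and those outside 186 and 171 TPM. Across the fit, Sod1 was 0.23 ± 0.06 log2 higher inside the set (limma, adjusted p = 0.028). With a term for the set, the rise over untreated was 0.17 for IL-33 with IL-17A (limma, adjusted p = 0.1), 0.13 for IL-33 with IL-13 (limma, adjusted p = 0.31) and 0.19 for all 3 cytokines (limma, adjusted p = 0.025). Outside the set, the last was 0.18 (limma, adjusted p = 0.11), and it was also lost without replicate 1 of that group (0.18, limma adjusted p = 0.092), untreated replicate 1 (0.26, limma adjusted p = 0.061) or untreated replicate 3 (0.23, limma adjusted p = 0.08). Over IL-33 alone, Sod1 was called higher on adding IL-17A (0.30, limma adjusted p = 0.044) and IL-13 (0.34, limma adjusted p = 0.012). With the set term these were 0.15 (limma, adjusted p = 0.36) and 0.10 (limma, adjusted p = 0.54). The IL-17A call was also lost without any 1 of the 3 IL-33 libraries or without replicate 2 or 3 of IL-33 with IL-17A, and the IL-13 call without IL-33 replicate 3. Part of the Sod1 span is shared with Scaf4 on the opposite strand, which did not exceed 11.6 TPM.

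Sod3 (chr5:52363791-52371418, plus strand), the secreted dismutase, was abundant and nearly level. Its group means were 777 ± 63.6 TPM in untreated cells, 848 ± 47.6 with IL-33, 803 ± 48.8 with IL-33 and IL-17A, 879 ± 22.0 with IL-33 and IL-13, and 909 ± 5.62 with all 3 (SD, n = 3 each). The untreated range, 703 to 819 TPM, overlapped those of IL-33 and of IL-33 with IL-17A and lay below the other 2. Sod3 rose by 0.23 ± 0.06 log2 with all 3 cytokines (limma, adjusted p = 0.0087) and by 0.18 ± 0.06 with IL-33 and IL-13 (limma, adjusted p = 0.026). The first was 0.23 outside the set (limma, adjusted p = 0.051). The second was lost with the set term (0.24, limma adjusted p = 0.074), with the compared groups alone (0.18, limma adjusted p = 0.053), and without untreated replicate 3 (0.11, limma adjusted p = 0.11) or replicate 1 or 2 of that group.

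**Figure D2:**
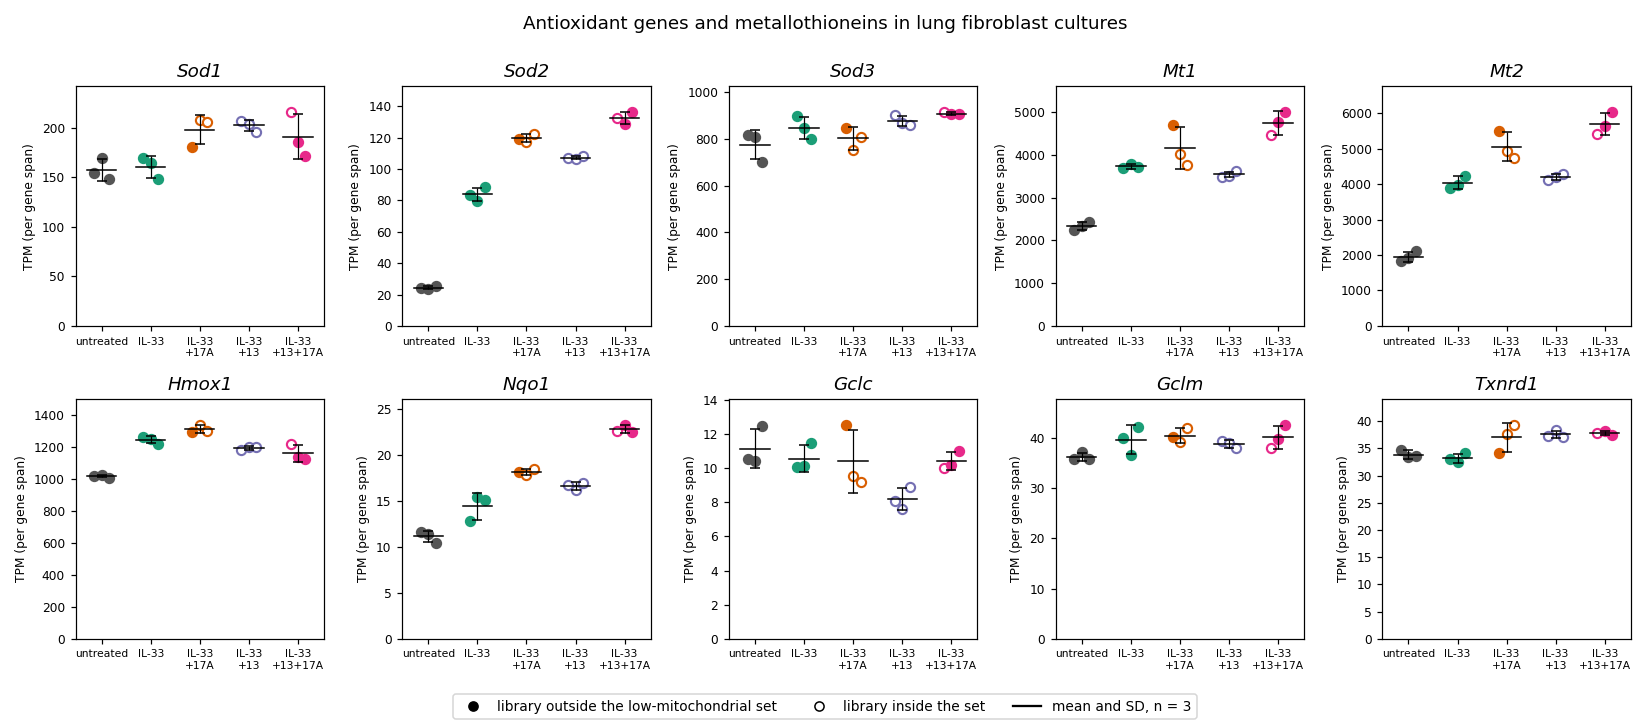
TPM of each of the 10 genes in the 15 libraries by treatment group, with the mean and SD of 3 libraries; each y axis starts at 0 and has its own scale, and open circles are the 6 libraries of the low-mitochondrial set. Sod2 climbs from 23.2 to 25.3 TPM in untreated cells to 129 to 136 TPM with all 3 cytokines with no overlap between groups, while Gclm and Sod3 stay nearly level.

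Mt1 (chr8:94179082-94180327, plus strand) and Mt2 (chr8:94172664-94173568, plus strand) rose in all 4 treated groups. Mt1 had 2244, 2344 and 2440.3 TPM in untreated cells, 3686, 3800.4 and 3711 with IL-33, and 3496, 3518 and 3622 with IL-33 and IL-13. It had 4709, 4030.4 and 3763 TPM with IL-33 and IL-17A, and 4463, 4776 and 5004 with all 3. Every treated library lay above every untreated one, and the IL-33 with IL-13 libraries lay below all IL-33 libraries. Mt2 had 1842, 1909 and 2113 TPM in untreated cells, 3902, 3986 and 4241 with IL-33, and 4127, 4197 and 4276 with IL-33 and IL-13. It had 5516, 4925 and 4746 TPM with IL-33 and IL-17A, and 5425, 5629 and 6037 with all 3. For Mt2, both groups that received IL-17A lay above all groups that did not.

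Against untreated cells, IL-33 raised Mt1 by 0.67 ± 0.07 log2 (1.59-fold; limma, adjusted p = 2.2e-05) and Mt2 by 1.05 ± 0.06 (2.07-fold; limma, adjusted p = 1.9e-07). With all 3 cytokines the rises were 1.02 for Mt1 (2.02-fold) and 1.54 for Mt2 (2.92-fold). Adding IL-13 to IL-33 gave no called change in either: Mt1 differed by -0.07 ± 0.07 and Mt2 by 0.06 ± 0.06 log2 (limma, adjusted p = 0.43 and 0.53). With median-ratio scaling the Mt1 difference was 0.02, and the Mt2 difference, 0.15, was called (limma, adjusted p = 0.029). Adding IL-17A to IL-33 with IL-13 raised both, Mt1 by 0.42 ± 0.07 (limma, adjusted p = 0.0026) and Mt2 by 0.44 ± 0.06 (limma, adjusted p = 0.0012).

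Adding IL-17A to IL-33 without IL-13 raised Mt2 by 0.32 ± 0.06 log2 (limma, adjusted p = 0.0065), a call lost in the fit of the compared groups alone (limma, adjusted p = 0.059). For Mt1 the same addition gave 0.15 ± 0.07 and was not called (limma, adjusted p = 0.18). Mt1 was lower inside the library set by 0.20 log2 (fitted difference -0.20 ± 0.04; limma, adjusted p = 0.013). The 1 library of IL-33 with IL-17A outside the set had 4709 TPM, and the 2 inside had 3763 and 4030.4 TPM. With a term for the set the IL-17A change of Mt1 was 0.29 (limma, adjusted p = 0.0047), and among libraries outside the set it was 0.34 (limma, adjusted p = 0.02). The latter rests on 1 library of IL-33 with IL-17A. Adding IL-13 to IL-33 with IL-17A gave 0.19 ± 0.07 for Mt1 and 0.17 ± 0.06 for Mt2, neither called (limma, adjusted p = 0.078 and 0.094). Without replicate 1 of IL-33 with IL-17A both were called, at 0.28 (limma, adjusted p = 0.0027) and 0.24 (limma, adjusted p = 0.02). Without replicate 1 of the 3-cytokine group Mt1 alone was, at 0.24 (limma, adjusted p = 0.046).

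Mt2 gained on Mt1 in every treated library. The ratio of Mt2 to Mt1 in TPM was 0.815 to 0.866 in untreated cells and 1.05 to 1.26 over the 12 treated libraries, with no overlap. Group means of the ratio were 0.834 ± 0.0279 untreated, 1.08 ± 0.0516 with IL-33, 1.22 ± 0.0451 with IL-33 and IL-17A, 1.18 ± 0.00709 with IL-33 and IL-13, and 1.20 ± 0.0191 with all 3 (SD, n = 3). Together the genes took 0.409 to 0.455% of all TPM in untreated cells and 0.989 to 1.1% with all 3 cytokines. Mt1 and Mt2 are close paralogs, and how the authors counted reads that match both is not given in the sources used here, so the split between them is uncertain. Mt2 also overlaps Gm45774 on the opposite strand, which did not exceed 5.21 TPM.

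Hmox1 (chr8:75093621-75100589, plus strand), heme oxygenase 1, degrades heme to biliverdin, iron and carbon monoxide. It had 1018, 1020.5 and 1006 TPM in untreated cells, 1259, 1249 and 1218 with IL-33, and 1291, 1336 and 1299.8 with IL-33 and IL-17A. It had 1178, 1196 and 1197 TPM with IL-33 and IL-13, and 1216, 1133 and 1123 with all 3. All treated libraries lay above all untreated ones, and the 2 groups with IL-13 lay below the 2 without it. The rise over untreated was 0.29 ± 0.03 log2 with IL-33 (limma, adjusted p = 3.2e-05), 0.37 ± 0.03 when IL-17A was added, 0.23 ± 0.03 with IL-33 and IL-13, and 0.19 ± 0.03 with all 3 (limma, adjusted p = 3.4e-04).

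Hmox1 fell when IL-13 was added to IL-33 with IL-17A, by 0.18 log2 (difference -0.18 ± 0.03; limma, adjusted p = 0.0019), and this was -0.15 with the set term (limma, adjusted p = 0.0011). Outside the set the difference was -0.19, with 1 library of IL-33 with IL-17A. The call was lost in the fit of those 2 groups alone (limma, adjusted p = 0.083). Added to IL-33, IL-13 gave -0.06 ± 0.03 (limma, adjusted p = 0.15), which was 0.03 with median-ratio scaling and -0.13 with the set term (limma, adjusted p = 0.029). Macrophages are a known site of high Hmox1 expression. The summed TPM of the macrophage markers was 19281 to 19652 in untreated cells, 18759 to 18969.9 with IL-33, 18653 to 19850.2 with IL-33 and IL-17A, 17950.7 to 18168 with IL-33 and IL-13, and 17305 to 18132 with all 3. Lyz2, with a mean of 9363 TPM, was the largest part of this sum. With all 3 cytokines, limma called 8 of the 13 macrophage markers tested lower and 3 higher. Of all genes, 30.1% were called lower and 12.6% higher. The macrophage markers called higher were Mrc1 (1.57 log2), Itgam (0.69) and Cd14 (0.43). The part of the macrophage markers in the Hmox1 values was not tested.

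Nqo1 (chr8:107388225-107403206, minus strand), a quinone reductase, had 11.6, 11.4 and 10.4 TPM in untreated cells and 12.8, 15.4 and 15.1 with IL-33. It had 16.7, 16.2 and 17.0 TPM with IL-33 and IL-13, and 18.2, 17.9 and 18.5 with IL-33 and IL-17A. All 3 cytokines gave 22.6, 23.3 and 22.5 TPM. As for Sod2, no group overlapped another, and the groups stood in the same order. IL-33 raised Nqo1 by 0.34 ± 0.06 log2 (limma, adjusted p = 0.0023), and the 3 cytokines raised it by 0.97 ± 0.06 (1.96-fold; limma, adjusted p = 7.3e-08). The IL-33 call was lost in the fit of those 2 groups alone (limma, adjusted p = 0.053).

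IL-17A raised Nqo1 both over IL-33 (0.32 ± 0.06; limma, adjusted p = 0.0059) and over IL-33 with IL-13 (0.43 ± 0.06; limma, adjusted p = 0.0011). IL-13 raised it over IL-33 with IL-17A by 0.31 ± 0.06 (limma, adjusted p = 0.0048). Over IL-33 alone, the IL-13 change of 0.20 ± 0.06 (limma, adjusted p = 0.031) was lost with the set term (0.20, limma adjusted p = 0.21), in the fit of the compared groups (limma, adjusted p = 0.09), without IL-33 replicate 1 (0.12, limma adjusted p = 0.096), and without any 1 of the IL-33 with IL-13 libraries. Outside the set, the IL-17A change over IL-33 and the IL-13 change over IL-33 with IL-17A were both 0.32, and neither was called (limma, adjusted p = 0.27 and 0.17). Nqo1 itself did not differ by set (-0.01 ± 0.07).

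Gclc (chr9:77754535-77794485, plus strand) and Gclm (chr3:122245557-122270732, plus strand) encode the catalytic and modifier subunits of glutamate-cysteine ligase, which makes the precursor of glutathione. Gclc had 10.5, 10.4 and 12.5 TPM in untreated cells, 10.1, 10.1 and 11.5 with IL-33, and 12.5, 9.52 and 9.18 TPM when IL-17A was added. It had 8.10, 7.62 and 8.92 TPM with IL-33 and IL-13, and 10.03, 10.2 and 11 with all 3. All 3 libraries of IL-33 with IL-13 lay below every other library, and the other groups overlapped. Gclc fell there by 0.40 against untreated (-0.40 ± 0.11; limma, adjusted p = 0.008) and by 0.33 against IL-33 (-0.33 ± 0.11; limma, adjusted p = 0.032). All 3 libraries of that group are inside the set, and with the set term the changes were -0.17 (limma, adjusted p = 0.39) and -0.10 (limma, adjusted p = 0.72). The fall against IL-33 was also lost with median-ratio scaling (-0.24, limma adjusted p = 0.052) and without IL-33 replicate 2 or 3 or replicate 1 or 2 of IL-33 with IL-13.

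Gclm stayed within 35.7 to 42.6 TPM over all 15 libraries. It was called higher against untreated in 1 group, IL-33 with IL-17A, at 0.15 ± 0.05 log2 (limma, adjusted p = 0.044), and that call was lost on leaving out any 1 of the 6 libraries compared (0.13 to 0.17), with the set term (0.18, limma adjusted p = 0.064) and outside the set (0.14, limma adjusted p = 0.32). With median-ratio scaling Gclm was called higher in all 4 treated groups, by 0.18 with IL-33 (limma, adjusted p = 0.034) to 0.27 with all 3 (limma, adjusted p = 9.4e-04). The Gclm span also holds the pseudogene Gm6061, on the same strand, at up to 14.2 TPM.

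Txnrd1 (chr10:82833951-82897712, plus strand), the cytosolic thioredoxin reductase, had 34.7, 33.3 and 33.5 TPM in untreated cells and 33.1, 32.5 and 34.1 with IL-33. It had 34.2, 37.7 and 39.3 TPM with IL-33 and IL-17A, 37.2, 38.3 and 37.1 with IL-33 and IL-13, and 37.9, 38.1 and 37.4 with all 3. The 2 groups with IL-13 lay above all untreated and IL-33 libraries. Txnrd1 rose by 0.15 ± 0.05 log2 with IL-33 and IL-13 (limma, adjusted p = 0.02) and by 0.16 ± 0.05 with all 3 (limma, adjusted p = 0.016). IL-13 added to IL-33 raised it by 0.17 ± 0.05 (limma, adjusted p = 0.014), which was 0.09 with the set term (limma, adjusted p = 0.41), and the rise over untreated with IL-33 and IL-13 was then 0.06 (limma, adjusted p = 0.49). The rise with all 3 remained called with the set term (0.13, limma adjusted p = 0.026) and was lost without untreated replicate 2 (0.14, limma adjusted p = 0.053). Without that library, untreated replicate 3 or IL-33 with IL-13 replicate 2, the rise with IL-33 and IL-13 was lost too, at 0.13 to 0.14. The IL-13 call over IL-33 was lost without IL-33 replicate 2 or IL-33 with IL-13 replicate 2, at 0.16 each. Without replicate 1 of IL-33 with IL-17A, Txnrd1 was called in that group, at 0.18 against untreated (limma, adjusted p = 0.0021) and 0.21 against IL-33 (limma, adjusted p = 0.0027).

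Counted together, 5 of the 10 genes were called higher and none lower with IL-33 against untreated (limma, adjusted p under the threshold of 0.05), where 14.2% of all 13887 tested genes were called, 5.92% higher and 8.28% lower. With IL-33 and IL-17A 7 were higher and none lower, against 37.7% of all genes called, 10.7% higher and 27.0% lower. With IL-33 and IL-13 8 were higher and 1 lower, against 49.6%, 14.5% higher and 35.1% lower. With all 3 cytokines 8 were higher and none lower, against 42.7%, 12.6% higher and 30.1% lower. The median log2 changes of the 10 genes were 0.21, 0.35, 0.30 and 0.25, and those of all genes -0.05, -0.09, -0.12 and -0.10. These comparisons share their untreated libraries, so their counts are not independent of each other. With the set term the count with IL-33 and IL-13 was 5 higher and none lower, namely Sod2, Mt1, Mt2, Hmox1 and Nqo1. The share of all genes called fell too, to 25.6%, with 1287 genes higher and 2262 lower.

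IL-17A added to IL-33 called 4 of the 10 higher (Sod1, Sod2, Mt2 and Nqo1) and none lower, against 9.76% of all genes, 3.54% higher and 6.22% lower. In the fit of those 2 groups alone only Sod2 of the 10 was called (0.51, limma adjusted p = 0.0057), where 4.16% of all genes were called. IL-17A added to IL-33 with IL-13 called 4 higher (Sod2, Mt1, Mt2 and Nqo1) and none lower, against 7.45%, 3.40% higher and 4.05% lower. That count was 4 in each of the 6 fits that left out 1 library, where 3.56 to 14.2% of all genes were called. IL-13 added to IL-33 called 4 higher and 1 lower, against 32.4%, 10% higher and 22.4% lower. That total of 5 was 2 with the set term, 3 without IL-33 replicate 2 or 3 or IL-33 with IL-13 replicate 1, and 2 without IL-33 with IL-13 replicate 2. Of all genes, 10.2% were then called with the set term and 22.3 to 24.8% without the libraries named. IL-13 added to IL-33 with IL-17A called 2 higher and 1 lower, against 15.8%, 6.70% higher and 9.14% lower. That total of 3 was 5 without IL-33 with IL-17A replicate 1, where 17.7% of all genes were called. The median log2 change of the 10 genes was 0.15, 0.18, 0.05 and 0.09 in these comparisons, in the order given, and that of all genes -0.05, 0.01, -0.08 and -0.02.

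The scaling moved the balance of calls over all genes. With median-ratio scaling the genes called higher and lower were 1109 and 853 with IL-33 (822 and 1150 on TPM), 2465 and 2182 when IL-17A was added (1486 and 3743), 3383 and 3027 with IL-33 and IL-13 (2017 and 4870), and 2839 and 2572 with all 3 (1755 and 4178). For IL-17A added to IL-33 they were 715 and 628 (491 and 864), and for IL-13 added to IL-33 2306 and 2048 (1395 and 3111). The median of all genes with IL-33 and IL-13 moved from -0.12 to 0.01 log2. Of the 10 genes, 6, 8, 9 and 9 were then called higher in the 4 comparisons with untreated cells, and Gclc remained the 1 called lower, with IL-33 and IL-13.

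**Figure D3:**
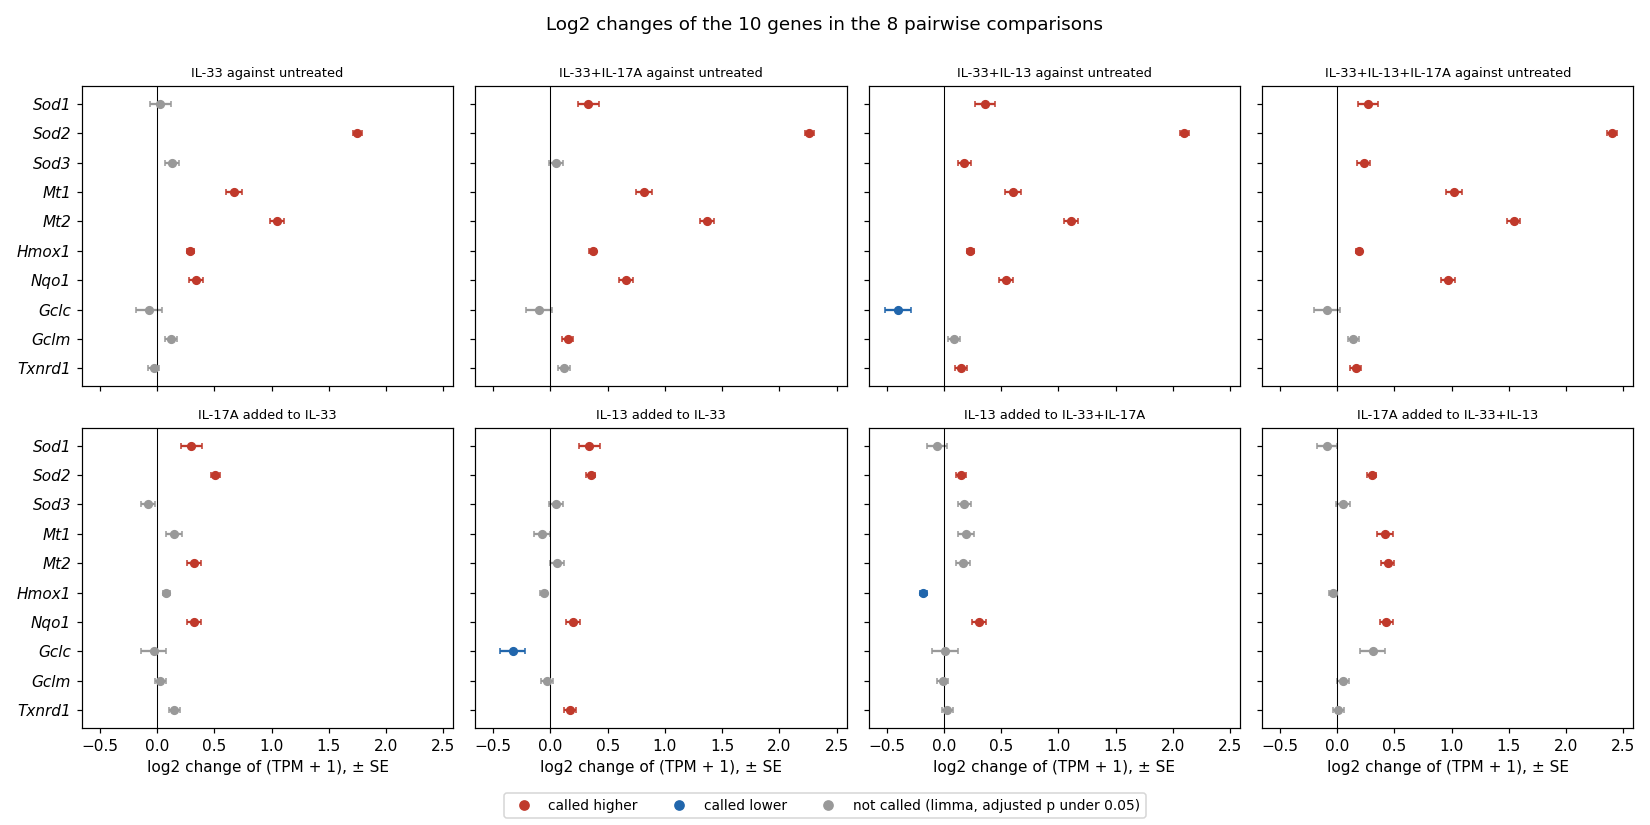
Log2 changes of the 10 genes on TPM + 1, with SE, in the 8 pairwise comparisons, from 1 limma fit over 15 libraries; red is called higher, blue called lower and grey not called. Sod2 lies farthest right in all 4 comparisons with untreated cells, from 1.75 to 2.40, and Gclc is called lower in both comparisons that set IL-33 with IL-13 against a group without IL-13.

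Whether IL-13 and IL-17A together differed from the sum of their separate changes was tested as an interaction. None of the 10 genes was called by limma, against 0.338% of all genes (47 of 13887), and 6 of the 10 had an unadjusted p under 0.05, as had 3750 of all genes. The fitted interaction was -0.21 ± 0.06 log2 for Sod2 (limma, adjusted p = 0.09), -0.39 ± 0.12 for Sod1 (limma, adjusted p = 0.095) and 0.27 ± 0.10 for Mt1 (limma, adjusted p = 0.12). With median-ratio scaling 1 gene was called, Sod2 (-0.29, limma adjusted p = 0.036), against 0.698% of all genes. On estimated reads limma-voom called 3, Sod2, Sod1 and Hmox1, against 9.96% of all genes. Without IL-33 with IL-17A replicate 1, 5 of the 10 and 3038 of all genes were called, and without replicate 1 of the 3-cytokine group 2 and 2284. Both are the libraries that stand on the other side of the set from the rest of their group, and with the set term 2 of all genes and none of the 10 were called.

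Called changes of Nfe2l2, Keap1, Bach1 and Mtf1 against untreated cells were lost with the library set term or with median-ratio scaling. A list of 9 NRF2 regulators held Nfe2l2, Keap1 and Bach1, and not Mtf1. Of these 9, 1 was higher and 1 lower with IL-33 (14.2% of all genes called), and 4 higher and 2 lower with IL-33 and IL-17A (37.7%). With IL-33 and IL-13, 3 were higher and 4 lower (49.6%), and with all 3, 2 higher and none lower (42.7%). With the set term these counts became 1 and 1, 5 and 1, 1 and 1, and 2 and 2. The shares of all genes called were then 19.3, 24.9, 25.6 and 42.9%. With median-ratio scaling the counts were 1 and none, 5 and none, 4 and 1, and 2 and none. The shares were then 14.1, 33.5, 46.2 and 39.0%. Nfe2l2, which encodes NRF2, averaged 83.2 TPM in untreated cells and 68.5 with IL-33 and IL-13 (-0.28, limma adjusted p = 0.029). All 3 libraries of that group are inside the set, and with the set term the difference was 0.02 (limma, adjusted p = 0.88). Nfe2l2 was instead called higher with IL-33 and IL-17A under that term (0.24, limma adjusted p = 0.014), where the difference without the term was 0.04 (limma, adjusted p = 0.75). Keap1, the inhibitor of NRF2, was called higher with IL-33 and IL-13 (0.26, limma adjusted p = 0.037), and the difference was 0.01 with the set term (limma, adjusted p = 0.96).

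Bach1, a repressor that competes for NRF2 sites and controls Hmox1, was called lower with IL-33 (-0.15, limma adjusted p = 0.012). With median-ratio scaling its difference was -0.09 (limma, adjusted p = 0.11), and it was not called against untreated cells in any group. Maff and Mafg, small MAF partners of NRF2, were higher with all 3 cytokines by 0.30 and 0.33 (limma, adjusted p = 0.0036 and 3.8e-05), and both were also called there with the set term and with median-ratio scaling. Mtf1, the metal sensor, was called lower with IL-33 and IL-17A (-0.21, limma adjusted p = 0.05) and with IL-33 and IL-13 (-0.22, limma adjusted p = 0.031). These differences were -0.10 and -0.05 with the set term, and with median-ratio scaling -0.10 and -0.08, none of them called. Nfkb1, an NF-kB subunit, rose by 0.42 with IL-33 and by 1.22 with all 3 (limma, adjusted p = 2.3e-04 and 3.1e-09).

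Of 9 NF-kB feedback genes, which NF-kB itself induces, all 9 were called higher with IL-33, where 5.92% of all genes were. With all 3 cytokines 7 of 9 were called higher and none lower, against 12.6% and 30.1% of all genes. The 2 not called were Icam1 (50.7 TPM in untreated cells and 46.0 with all 3) and Nfkbie (24.4 and 23.6 TPM), named here after their values were seen. Icam1 was called lower with all 3 when the set was a term (-0.17, limma adjusted p = 0.03). The medians of the list were 0.61 and 0.79 log2, against -0.05 and -0.10 for all genes. With IL-33 the largest rises were in Zc3h12a (2.33), Nfkbia (1.20), Tnfaip3 (0.96) and Birc3 (0.63), each called by limma. On adding IL-13 to IL-33, where Sod2 rose by 0.35, 3 of the 9 were higher and 2 lower. Of all genes, 10% were called higher and 22.4% lower in that comparison. The median of the list was -0.03, against -0.08 for all genes. With median-ratio scaling 3 were higher and none lower, where 31.4% of all genes were called. With the set term 2 were higher and none lower, where 10.2% of all genes were called.

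Of 18 other NRF2 targets, 4 were higher and 1 lower with IL-33 (5.92% and 8.28% of all genes), and 10 higher and 4 lower with all 3 (12.6% and 30.1%). With all 3 the largest changes were in Ugdh, which makes UDP-glucuronate (0.86), Ephx1, an epoxide hydrolase (-0.75), Gstm1, a glutathione transferase (0.64), and the exporter Abcc1 (0.62), each called by limma. The median of the list was 0.21, against 0.25 for the 10 genes and -0.10 for all genes. With median-ratio scaling 13 of the list were higher and 3 lower with all 3, where 39.0% of all genes were called.

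Of 12 zinc-handling genes, 1 was higher and none lower with IL-33, where 14.2% of all genes were called. With all 3, 4 were higher and 4 lower, where 42.7% of all genes were called. The median of -0.09 was near that of all genes, -0.10. With median-ratio scaling 4 were higher and 1 lower with all 3, where 39.0% of all genes were called. Slc39a14, a zinc and iron importer, averaged 49.0 TPM in untreated cells and 84.6, 100.5, 98.7 and 112 TPM with IL-33, IL-33 and IL-17A, IL-33 and IL-13, and all 3. It rose by 0.78 ± 0.03 log2 with IL-33 and 1.18 ± 0.03 with all 3 (limma, adjusted p = 6.8e-10 and 2.9e-12). Cp, ceruloplasmin, the copper-carrying ferroxidase, averaged 5.37 TPM in untreated cells and 53.8 with all 3, a rise of 3.10 ± 0.09 log2 (limma, adjusted p = 5.6e-11). Of the 6 copper-handling genes tested, 3 were then higher and 1 lower, against 12.6% and 30.1% of all genes. Their median was 0.17, and with median-ratio scaling 3 were higher and none lower.

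Genes that remove peroxide, the product of the dismutases, were listed with related genes, among them Glrx, Msrb1 and the inhibitor Txnip. Of the 18 tested, 4 were higher and 1 lower with IL-33 (14.2% of all genes called), and 6 higher and 4 lower with all 3 (42.7%). The medians were -0.02 and 0.00. Glrx, glutaredoxin, rose by 0.95 ± 0.04 with IL-33 and 1.78 ± 0.04 with all 3 (limma, adjusted p = 1.0e-08 and 5.1e-12), and Prdx6, a peroxiredoxin, by 0.40 and 0.63. Txnip, an inhibitor of thioredoxin, and Msrb1, a methionine sulfoxide reductase, changed by -0.73 and -0.66 with all 3 (limma, adjusted p = 1.6e-06 and 8.7e-08). Of 9 sources of superoxide and nitric oxide, 1 was higher and 3 lower with IL-33, and 3 higher and 4 lower with all 3, with medians of -0.02 and -0.09. Nos2, inducible nitric oxide synthase, averaged 0.0904 TPM in untreated cells and 12, 129, 7.01 and 101 TPM in the treated groups in the order IL-33, IL-33 and IL-17A, IL-33 and IL-13, and all 3. Cybb, the phagocyte NADPH oxidase subunit, averaged 58.5 TPM in untreated cells and 17.7 TPM with all 3, a change of -1.67 log2 (limma, adjusted p = 1.9e-09). Of 6 further glutathione genes, 2 were higher and 2 lower with all 3, against 12.6% and 30.1% of all genes. The largest change was in Chac1, which degrades glutathione, at -1.47 (limma, adjusted p = 1.9e-07). With median-ratio scaling and all 3 cytokines, 9 of the peroxide list were higher and 3 lower, where 39.0% of all genes were called. The superoxide and nitric oxide sources then had 3 higher and 2 lower, and the glutathione genes 3 and 1.

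**Figure D4:**
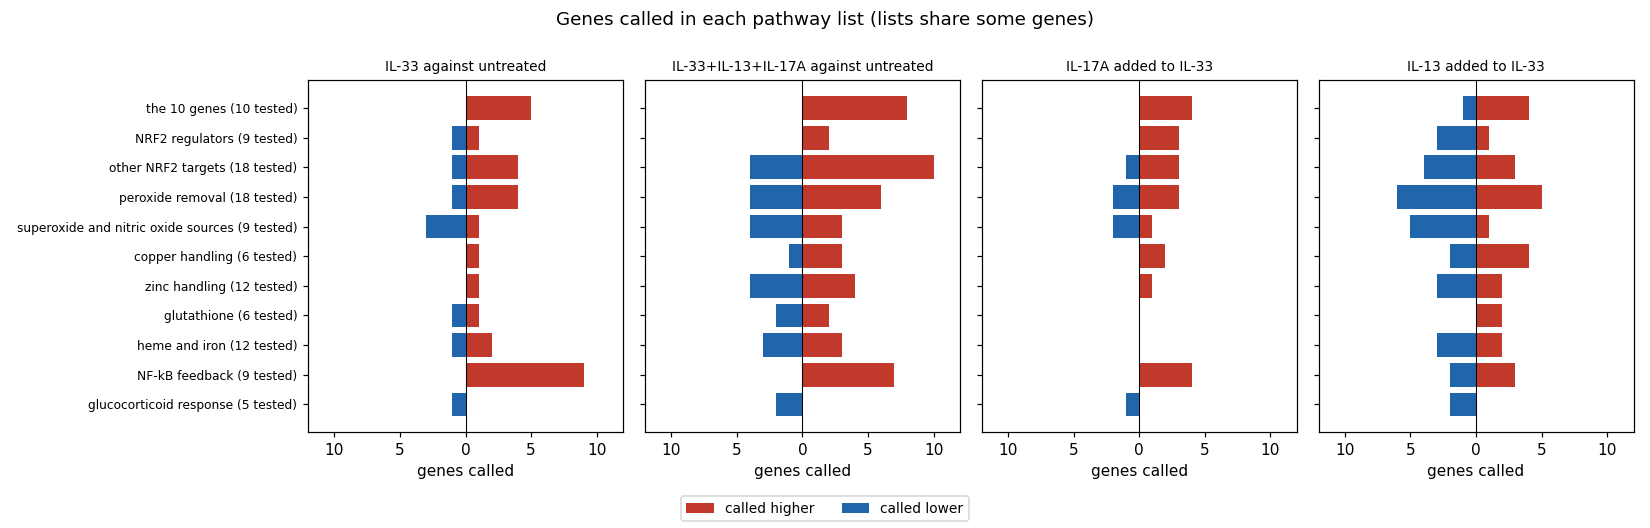
Number of genes called higher (right, red) and lower (left, blue) by limma in each list, for 4 comparisons; the lists share some genes. All 9 NF-kB feedback genes are called higher with IL-33, and the 10 antioxidant and metallothionein genes have 8 higher and none lower with all 3 cytokines.

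The deposited TPM divide by the whole gene span, so levels of different genes were compared as estimated RPKM over annotated exons. On that scale Hmox1 was highest in untreated cells (336), followed by Mt2 (250.1), Mt1 (195) and Sod3 (132), and the other 6 lay between 6.70 and 25.3. Sod2 was the lowest of the 10 in untreated cells, at 6.70 ± 0.228, and rose to 40.03 ± 1.21 with all 3 (SD, n = 3), above Txnrd1 (30.9) and Sod1 (24.4). Mt2 was the highest with all 3, at 797 ± 32.4, against 419 ± 25.9 for Hmox1. The exons of all annotated transcripts were merged, so a gene with many unused exons is understated on this scale. This bears on Mt1, whose merged exons fill its whole span of 1246 bases, against 588 for Mt2. Estimated reads were higher for Mt1 than for Mt2. They were 2573 to 2857 against 1522 to 1796 in untreated cells, and 6084 to 6492 against 5337 to 5688 with all 3. The rank of Mt1 therefore rests on the length used. So does that of Sod2, whose merged exons, at 10008 bases, were the longest of the 10. Its estimated reads in untreated cells, 679 to 815, lay above those of Nqo1 (147 to 175) and Gclc (368 to 467).

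Across the 15 libraries the genes most like Sod2 by Pearson r of log2(TPM + 1) were Penk (0.998), Mmp10 (0.998) and Slc39a14 (0.996), the zinc importer above. Mt1 was nearest to Dcn (0.986), Mt2 (0.983) and Ccbe1 (0.981), and Mt2 to Itgam (0.994), Ereg (0.993) and Il6 (0.992). Nqo1 was nearest to Il33 (0.985), Acsl4 (0.970) and Trf (0.969). Hmox1 was nearest to Cfb (0.943), Sdc1 (0.942) and Ccl20 (0.938). Sod1, Txnrd1 and Gclc had Rpl41 (0.960), Psmd13 (0.957) and Lrif1 (0.956) first, and Sod3 and Gclm reached only 0.873 (Ap2s1) and 0.838 (Scamp1). Among the 10, Sod2 and Mt2 had r = 0.98, Mt1 and Mt2 0.98, and Sod1 and Gclc -0.70. All points share the same 5 treatments, libraries and library set, so these values describe a shared pattern over groups.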

How the data were processed

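RNA of 15 libraries was read on a NovaSeq, per the labels. The authors deposited TPM for 18078 genes per library; HISAT2 and the build mm10 are named in the submitters' processing notes, and the counting tool is not given in the sources used here. The length behind the TPM is the gene span, introns included: TPM times span gave whole reads for 89.9 to 91.0% of 4744 to 4986 low values per library (tolerance 0.03), which gave the estimated reads. TPM shares a fixed total, so rises in abundant genes lower the rest.

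Groups came from the treatment labels. Replicates carry accession-order numbers, and nothing says they are separate cultures or animals, so the p-values reflect the library-to-library spread alone, possibly a technical one. limma 3.58.1 (R 4.3.3; trend, robust) was fitted to log2(TPM + 1) of 13887 genes that reached 1 TPM in 3 or more libraries (4191 did not), with 1 mean per group over all 15 libraries. The Benjamini-Hochberg adjustment ran over all tested genes, with calls at adjusted p under 0.05. A fold change on TPM + 1 understates that of low genes. The fit was tested on simulated data for IL-33 against untreated over 13887 genes: it recovered 80% of changes of 0.5 log2 and 93% of changes of 1 log2, and 3.35% of its calls were false. The simulation changed 100 genes of each size, with independent noise per gene and no library set. It therefore does not give the error rate of the calls reported here. Promoters came from RefSeq (GRCm38.p6) and exons from GENCODE vM21; coordinates are mm10.

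All 10 genes are described in every comparison. From each further list, up to 4 called genes with the largest change in the comparison described are named, besides Nfe2l2, Keap1, Bach1, Mtf1 and Nfkb1, and the 3 genes nearest each of the 10 by Pearson r. Genes and lists were chosen with earlier results of these data known. Alternatives were another pseudocount, 2 other filters, median-ratio scaling, compared groups alone, a library set term and leaving out each library. limma-voom on estimated reads, the libraries outside the set alone, and the set term and median-ratio scaling for the further lists were added after seeing the data.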

Additional observations from a re-analysis of the deposited data

How the results depend on the processing

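The labels limit these results to 3 libraries a group with no stated culture or animal. No paired analysis was possible because the labels give the libraries no replicate numbers. The calls of Sod2, Mt1, Mt2 and Hmox1 against untreated cells held in every alternative run. Over the pairwise and interaction values of the 10 genes, leaving out 1 library at a time gave 530 results on the same side, 37 calls lost, 14 gained and 19 changes of sign; the other settings gave 583, 32, 31 and 34. Pseudocount 0.1 and the 5 TPM filter changed none of 90. The cause was not tested for any of the changes below. limma-voom on estimated reads, the libraries outside the set alone and the alternatives for regulators and further lists were chosen after seeing the data.

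Counts of all genes called moved as follows. With the set term, IL-33 with IL-17A against untreated gave 3452 (5229 in the fit reported), IL-33 with IL-13 against untreated 3549 (6887), IL-17A added to IL-33 835 (1355), IL-13 added to IL-33 1420 (4506), IL-17A added to IL-33 with IL-13 566 (1034) and the interaction 2 (47). With the compared groups alone, IL-17A added to IL-33 gave 550, IL-13 added to IL-33 with IL-17A 803 (2199) and IL-17A added to IL-33 with IL-13 590. Outside the set, IL-33 with IL-17A against untreated gave 2152, IL-17A added to IL-33 316 and IL-13 added to IL-33 with IL-17A 824. limma-voom gave 1646 for IL-17A added to IL-33 with IL-13 and 1383 for the interaction, and median-ratio scaling 97 for the interaction. Leaving out 1 library gave 810 to 3057 for IL-17A added to IL-33 (the highest without IL-33 with IL-17A replicate 1), 1451 to 2542 for IL-13 added to IL-33 with IL-17A (the lowest without replicate 2 of the 3-cytokine group), 493 to 1961 for IL-17A added to IL-33 with IL-13 (the highest without replicate 1 of the 3-cytokine group) and 21 to 3038 for the interaction.

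Counts of the 10 genes called are given with the share of all genes called in the same fit. Those of the fit reported are in brackets. IL-33 with IL-13 against untreated called 5 and 25.6% when the set was a term (9 and 49.6%). IL-17A added to IL-33 called 1 and 4.16% with the compared groups alone and 7 and 12.8% by limma-voom (4 and 9.76%). IL-13 added to IL-33 called 2 and 10.2% with the set term (5 and 32.4%). IL-13 added to IL-33 with IL-17A called 5 and 16.8% with median-ratio scaling (3 and 15.8%). It called 1 and 6.10% with the compared groups alone, and 6 and 19.0% by limma-voom. The interaction called 1 and 0.698% with median-ratio scaling and 3 and 9.96% by limma-voom (0 and 0.338%). Leaving out 1 library gave 2 to 4 and 22.3 to 28.9% for IL-13 added to IL-33. It gave 2 to 5 and 10.5 to 18.4% for IL-13 added to IL-33 with IL-17A. For the interaction it gave 0 to 5 and 0.152 to 21.9%.

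Every change of sign was in a value not called in the fit reported. With median-ratio scaling, Txnrd1 was 0.03 with IL-33, Gclc 0.01 with IL-33 and IL-17A, 0.04 with all 3 and 0.03 on adding IL-17A to IL-33. On adding IL-13 to IL-33, Mt1 was then 0.02, Hmox1 0.03 and Gclm 0.06. Gclm was 0.00 on adding IL-13 to IL-33 with IL-17A, Txnrd1 -0.01 on adding IL-17A to IL-33 with IL-13, and the Gclm interaction -0.06. By limma-voom these were 0.02 for Txnrd1 with IL-33, 0.03 for Gclc with all 3 and 0.01 on adding IL-17A to IL-33, 0.01, 0.02 and 0.05 for Mt1, Hmox1 and Gclm on adding IL-13 to IL-33, 0.00 for Gclm on adding IL-13 to IL-33 with IL-17A, and -0.05 for its interaction. With the set term, Gclc was 0.06 with IL-33 and IL-17A, 0.12 on adding IL-17A to IL-33 and -0.07 on adding IL-13 to IL-33 with IL-17A, and Sod1 was 0.02 in the last and 0.07 on adding IL-17A to IL-33 with IL-13. Mt1 was 0.13 and Gclm 0.02 on adding IL-13 to IL-33, Hmox1 was 0.00 on adding IL-17A to IL-33 with IL-13, and the interactions of Mt1, Mt2 and Gclm were 0.00, -0.08 and -0.04. Outside the set, Gclc was 0.16 with IL-33 and IL-17A, 0.23 on adding IL-17A to IL-33 and -0.22 on adding IL-13 to IL-33 with IL-17A, Sod3 was 0.00 on adding IL-17A to IL-33, and Gclm 0.04 on adding IL-13 to IL-33 with IL-17A. Leaving out 1 library gave ranges that crossed 0 for Sod1 (-0.01 to 0.08) and Gclc (-0.13 to 0.01) with IL-33, Sod3 with IL-33 and IL-17A (-0.02 to 0.10), Gclc (-0.16 to 0.05) and Gclm (-0.02 to 0.08) on adding IL-17A to IL-33, and Gclm on adding IL-13 to IL-33 (-0.08 to 0.02). So did Sod1 (-0.15 to 0.02), Gclc (-0.07 to 0.14), Gclm (-0.05 to 0.03) and Txnrd1 (-0.02 to 0.07) on adding IL-13 to IL-33 with IL-17A, and the Gclm interaction (-0.03 to 0.07).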

Other observations

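Heme and iron genes and glucocorticoid targets, which share regulators with Hmox1 and the metallothioneins, were also listed. Of 12 heme and iron genes tested, 2 were called higher and 1 lower with IL-33, and 3 higher and 3 lower with all 3 cytokines. Over all genes 14.2% and 42.7% were called in these comparisons. The medians of the list were 0.00 and 0.02 log2, against -0.05 and -0.10. With median-ratio scaling 5 were higher and 2 lower with all 3, where 39.0% of all genes were called. With all 3 the largest were Blvrb, a biliverdin reductase (0.61), Tfrc, the transferrin receptor (0.45), Blvra, the other biliverdin reductase (-0.41), and the heme exporter Flvcr1 (-0.40), each called by limma. Tfrc averaged 62.7 TPM in untreated cells, 57.5 with IL-33, 53.1 with IL-33 and IL-17A, 87.8 with IL-33 and IL-13, and 85.8 with all 3. Its 2 groups with IL-13 lay above the other 3. Of 5 glucocorticoid targets, none was higher and 1 lower with IL-33, 1 was higher and 2 lower with IL-33 and IL-17A, and none was higher and 2 lower with IL-33 and IL-13 and with all 3. The shares of all genes called were 14.2%, 37.7%, 49.6% and 42.7%. Dusp1, a MAP kinase phosphatase, was -0.55 with IL-33 and -1.05 with all 3, and Fkbp5 was -0.26 with all 3, each called by limma.

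Mt3, a further metallothionein, was near the limit of detection. Its 3 untreated libraries spanned 0 to 1.47 TPM, and those given all 3 cytokines 3.74 to 6.52 TPM. The fitted change was 2.19 ± 0.51 log2 (limma, adjusted p = 0.0042).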
